A study of Rattus norvegicus with 9 samples.

Results

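The oligodendrocyte lineage was followed in the rat supraoptic nucleus through 9 genes of myelin and of oligodendrocyte precursors: Mbp, Mobp, Mag, Mog, Mal, Cnp, Ugt8, Cspg4 and Pdgfra. Every probe set that the platform annotation assigns to exactly 1 of these symbols was taken, which gave 9 of the 4736 genes named by a single symbol and 19 of the 8799 probe sets on the array, with 4 each for Mobp and Pdgfra, 3 for Mag, 2 each for Mog and Ugt8, and 1 for each of the other genes. Probe sets of a gene share their target RNA and are not replicates of one another. The supraoptic nucleus is a hypothalamic group of magnocellular neurons that make vasopressin and oxytocin. Male Sprague Dawley rats of 10 to 12 weeks had been dehydrated for 1 day or for 3 days or served as controls, and each of these groups has 3 arrays, titled a, b and c. Whether 1 array stands for 1 animal or for a pool is not in the labels, so that p-values describe the scatter of these arrays, part of which may be technical.

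Myelin is the sheath that oligodendrocytes wrap around axons. Its membrane is compacted by myelin basic protein (Mbp), carries adhesion proteins that face the axon or the outer surface (Mag, Mog), and is rich in galactolipids that the enzyme encoded by Ugt8 makes. Oligodendrocytes arise, in the adult brain too, from precursors that are recognised by the proteoglycan NG2 (Cspg4) and the platelet-derived growth factor receptor alpha (Pdgfra). Neither marker belongs to precursors alone: Cspg4 is also made by pericytes and Pdgfra by fibroblasts around vessels.

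Expression was read as MAS5 signal, an intensity on a linear scale. The median signal of an array lay between 26.8 and 40.3. The 1-day array c had the lowest median and 13 of the 15 values in the table that are 0, and on it 18.0% of the signals were under 4; the brightest signal was 2239 on it and 2105 on control c, while the other 7 arrays reached 3867 to 6295. The 3'/5' signal ratio of beta-actin was 0.74 to 1.07 on control arrays, 1.13 to 1.48 on 1-day arrays and 0.99 to 1.43 on 3-day arrays, and that of Gapdh was 0.93 to 1.09, 0.85 to 1.05 and 0.89 to 1.55 in the same order. The part of signal range and RNA quality in the results below was not tested. Avp and Oxt, the defining genes of the magnocellular neurons, read 1621.8 to 5678.3 and 208.3 to 4356.1 over the 9 arrays. In bulk tissue, fewer oligodendrocytes and less RNA per oligodendrocyte cannot be told apart.

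The promoters of 3 members are shown because their genes carry the clearest patterns below: Mobp and Mag differed most firmly between the replicate letters, and Cspg4 was the member whose arrays at both times lay apart from control. Each is 300 bases, 250 before and 50 after the RefSeq start site on GRCr8, 5' to 3' on the strand of the gene. Capitals mark matches, on either strand, to ACAAAG and AACAAT (cores of sites bound by SOX proteins), CTGGCAC and CTGGTAC (sites of the MYRF type) and GGGCGG (the GC box); no capitals overlap between motifs.
Mobp (chr8:128746982-128747281, plus strand): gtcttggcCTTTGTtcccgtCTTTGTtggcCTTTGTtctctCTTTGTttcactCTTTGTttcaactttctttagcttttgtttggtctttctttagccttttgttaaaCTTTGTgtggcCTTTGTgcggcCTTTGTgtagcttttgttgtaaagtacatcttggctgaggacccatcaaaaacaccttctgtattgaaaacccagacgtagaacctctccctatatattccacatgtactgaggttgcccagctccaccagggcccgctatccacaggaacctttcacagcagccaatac
Mag (chr1:95290995-95291294, minus strand): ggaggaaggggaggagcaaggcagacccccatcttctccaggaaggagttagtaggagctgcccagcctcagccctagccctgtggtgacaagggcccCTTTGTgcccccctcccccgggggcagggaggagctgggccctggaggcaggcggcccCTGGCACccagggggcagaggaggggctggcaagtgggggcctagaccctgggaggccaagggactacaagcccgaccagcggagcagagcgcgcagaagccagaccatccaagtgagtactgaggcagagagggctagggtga
Cspg4 (chr8:66160692-66160991, plus strand): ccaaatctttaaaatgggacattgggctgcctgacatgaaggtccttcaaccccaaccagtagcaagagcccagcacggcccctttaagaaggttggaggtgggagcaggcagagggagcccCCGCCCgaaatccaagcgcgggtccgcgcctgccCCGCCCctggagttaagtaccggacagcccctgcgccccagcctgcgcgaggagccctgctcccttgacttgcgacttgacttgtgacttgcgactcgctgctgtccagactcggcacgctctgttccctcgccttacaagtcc
The Mobp window held 8 matches to ACAAAG, all on the opposite strand and all between 242 and 120 bases before the start site. Of 33469 rat promoters of this length, 18.8% held that motif at least once and 3 held it 8 or more times. The Mag window held 1 match to ACAAAG, 152 bases before the start, and 1 to CTGGCAC, 94 bases before it; 4.75% of promoters held CTGGCAC. The Cspg4 window, with 62.0% G and C against 44.3% for Mobp, held 2 matches to GGGCGG, which 33.1% of promoters held. AACAAT occurred in 11.7% of promoters and CTGGTAC in 2.16%, and none of these 3 windows held either. Mog had no promoter entry and was not searched. Of the other members, Cnp also held ACAAAG and CTGGCAC once each, Mal held CTGGCAC once, and 1 of the 2 Mbp windows held ACAAAG once and AACAAT at 2 places. GGGCGG had 3 matches in Cnp, 3 in Ugt8, 2 in Mal, and 3 and 1 in the 2 Mbp windows. The motifs and the promoters shown were chosen after the values were seen, and a match describes letters only.

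**Figure D1:**
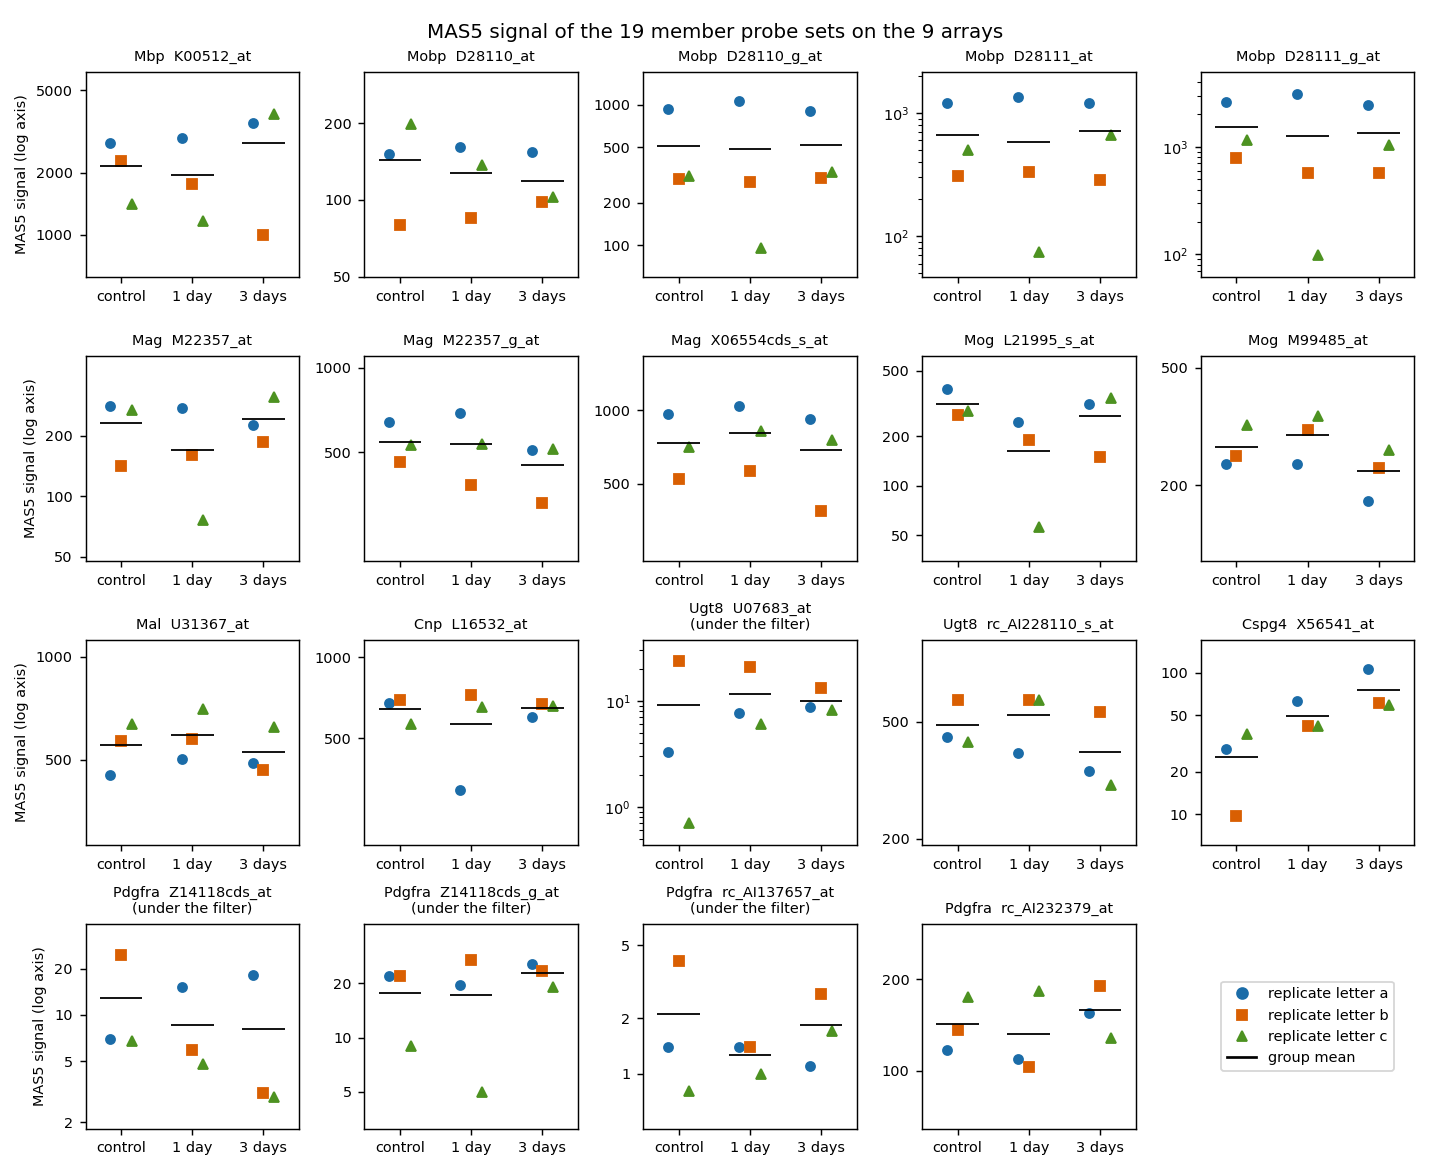
MAS5 signal (log axis) of each of the 19 member probe sets on the 9 arrays, in control, at 1 day and at 3 days; symbols give the replicate letter and the line the group mean. For 3 Mobp probe sets the letter a arrays stand above all others in every group, and the 1-day array c stands alone at the bottom.

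No member passed the test in any comparison. Of the 19 probe sets, 15 had a mean signal at or above the filter of 23.1 and entered the limma fit over 5247 probe sets; 0 of the 15 had a Benjamini-Hochberg adjusted p under 0.05 at 1 day (0.0% of all tested), at 3 days (0.0%), between 3 days and 1 day (0.0%) or in the F test over the 3 groups (0.0%). At an unadjusted p under 0.05, 1 of 15 stood out at 1 day (a Mog probe set, lower; 1.01% of all tested), 1 at 3 days (Cspg4, higher; 1.72%), 0 between 3 days and 1 day (1.83%) and 1 in the F test (Cspg4; 1.05%). The arrays of the groups did not overlap for 2 of 15 at 1 day (Cspg4 above control, that Mog probe set below; 4.21% of all tested), for 1 of 15 at 3 days (Cspg4; 7.74%) and for 0 of 15 between 3 days and 1 day (5.72%). The 15 differences, in log2(signal + 4), had a median of -0.14 at 1 day, with 5 higher and 10 lower, and of -0.07 at 3 days, with 7 higher and 8 lower, beside medians of 0.02 and 0.02 over all tested probe sets. By the brightest probe set of each of the 9 genes, 5 were higher and 4 lower at 1 day (median 0.10). At 3 days 4 were higher and 5 lower by that count (median -0.07). Without control c and 1-day c, 8 of the 15 probe sets were higher at 1 day (median 0.06). The standard errors of the 15 differences lay between 0.24 and 1.01, with a median of 0.38 beside 0.40 over all tested. The 1-day and 3-day comparisons share the control arrays.

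**Figure D2:**
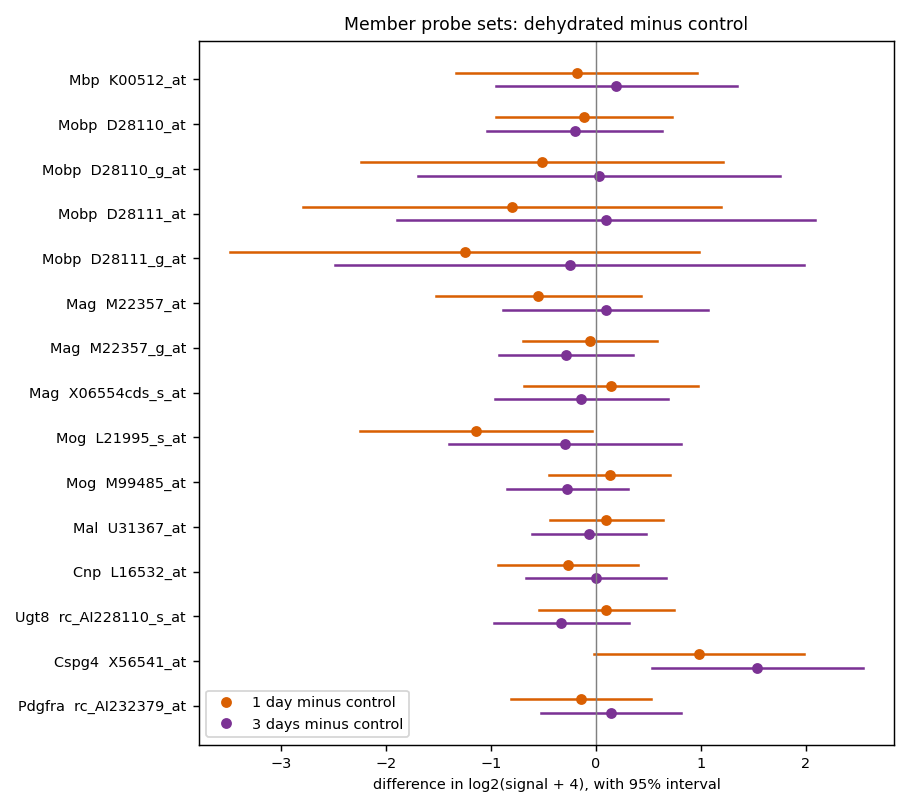
Difference in log2(signal + 4) from control at 1 day (upper line of each pair) and at 3 days (lower line) for the 15 member probe sets that passed the filter, with 95% intervals from limma. Only the 3-day interval of Cspg4 (0.54 to 2.54) and the 1-day interval of Mog L21995_s_at (-2.25 to -0.04) do not cross 0; these intervals are not adjusted for the number of probe sets.

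Cspg4, the NG2 proteoglycan of precursors and pericytes, was the member with the largest difference from control at 3 days and rests on 1 dim probe set, X56541_at. On arrays a, b and c, the order used below, its signal was 29.1, 9.7 and 37.1 in control, 63.4, 42.2 and 42.2 at 1 day and 107, 61.0 and 59.3 at 3 days. All 6 dehydrated arrays were above all 3 control arrays, and control b was the lowest array by over 1 unit of log2. The control mean was 25.3 ± 14.1, the 1-day mean 49.3 ± 12.2 and the 3-day mean 75.9 ± 27.3 (SD, n = 3 each). In limma the difference from control was 1.54 ± 0.45 at 3 days (log2 ± SE; 2.91-fold, unadjusted p = 0.0063, adjusted p = 1.00) and 0.98 ± 0.45 at 1 day (1.98-fold, unadjusted p = 0.054, adjusted p = 1.00). Once arrays were blocked by letter, the 1-day difference had an unadjusted p = 0.027 (adjusted p = 0.96). Between 3 days and 1 day it was 0.56 ± 0.45, with an interval of -0.45 to 1.56. Within the letters a, b and c the 3-day array stood 1.75, 2.25 and 0.62 above its control, and the 1-day array 1.03, 1.75 and 0.17 above it. Being higher within all 3 letters held for 16.9% of all tested probe sets at 3 days and 16.8% at 1 day. Over the 19 alternatives in which Cspg4 could be tested, the 3-day difference stayed between 1.06 and 1.86 with an unadjusted p of 0.0025 to 0.034, and its adjusted p between 0.87 and 1.00. The 1-day difference lay between 0.51 and 1.39, with an unadjusted p of 0.024 to 0.23 that was under 0.05 in 4 of the 19. The 3-day and the 1-day difference were both smallest without control b. The mean signal of Cspg4 was under the stricter filter at the 60th percentile of all probe sets.

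Pdgfra, the receptor through which platelet-derived growth factor acts on precursors, did not show the same order. The only one of its 4 probe sets over the filter, rc_AI232379_at, read 117, 136 and 176 in control, 109.5, 103 and 182 at 1 day and 155, 191 and 128 at 3 days. The 3 groups overlapped throughout, and letter c went the opposite way to letters a and b at both times. The difference from control was 0.14 ± 0.30 at 3 days and -0.14 ± 0.30 at 1 day, with intervals of -0.52 to 0.81 and -0.80 to 0.52. The other 3 probe sets were dim: rc_AI137657_at read 0.8 to 4.1, Z14118cds_at 2.9 to 24.6 and Z14118cds_g_at 5.0 to 26.8 over all arrays. Fitted without the filter, their 3-day differences were -0.04 ± 0.28, -0.55 ± 0.59 and 0.37 ± 0.55, so the probe sets of this gene did not share a direction.

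Markers of the other cells that make Cspg4 or Pdgfra were set beside these values. Of 11 tested mural and fibroblast genes, 6 were higher and 5 lower at 3 days, and 5 higher and 6 lower at 1 day; the summed signal of the 14 such genes on the array was 549.6 to 684 on control arrays, 413 to 723 on 1-day arrays and 594 to 627 on 3-day arrays, and none of the 14 was at 0 on any array. The 3-day sums lay inside the control range, and 0 of the 11 genes passed the test. Col1a2, a collagen gene of fibroblasts, was the one with an unadjusted p under 0.05, at -0.81 ± 0.36 between 3 days and 1 day (unadjusted p = 0.046, adjusted p = 1.00). Without the 1-day array c, 8 of the 11 were higher at 1 day (median 0.22, against -0.28 over all arrays), and without control b or control c 4 of 11 were higher at 3 days. Most of these genes were dim, and the filter at the 60th percentile left 3 of them. Of those, 3 were higher at 3 days (median 0.09) and 1 at 1 day (median -0.32). Of 4 tested endothelial genes 3 were lower at both times, but 3 were higher at 3 days without the 3-day array c (median 0.06) and at 1 day without control b (0.11); without the filter 4 of 8 were lower at 3 days and 3 of 8 at 1 day.

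Among the structural genes, Mal, a raft proteolipid of compact myelin, had the smallest standard error in the fit without the letter block. With the block it was 0.17 for Mal and for Mog M99485_at, and 0.18 for Mag M22357_g_at and X06554cds_s_at. The signal of Mal on arrays a, b and c was 450.1, 567 and 638 in control, 500.4, 573 and 701 at 1 day and 487, 468 and 622 at 3 days. The groups overlapped, and letter c was the highest in each of them. The difference from control was 0.10 ± 0.24 at 1 day and -0.07 ± 0.24 at 3 days, and the 3-day interval of -0.61 to 0.48 corresponds to 0.66-fold to 1.39-fold.

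Cnp, which encodes the cyclic nucleotide phosphodiesterase of non-compact myelin, read 675, 692 and 567 in control, 323, 725 and 652 at 1 day and 602, 672 and 662 at 3 days. The 1-day array a stood alone below the other 8, and the 3-day arrays lay within the control range. The differences were -0.26 ± 0.30 at 1 day and 0.01 ± 0.30 at 3 days, and without the 1-day array a the 1-day difference was 0.10.

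Mbp, which holds the compact membrane together, scattered most at 3 days. It read 2771, 2269.7 and 1406 in control, 2947, 1751 and 1166 at 1 day and 3466, 998 and 3839.6 at 3 days. The lowest and the highest of the 9 arrays were both 3-day arrays, and the means of 2768 ± 1544 at 3 days and 2149 ± 690.2 in control lay within 1 SD of each other (SD, n = 3 each). The difference was 0.20 ± 0.52 at 3 days and -0.18 ± 0.52 at 1 day; at 3 days it was -1.18 within letter b and 1.45 within letter c.

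The 3 Mag probe sets, for the myelin-associated glycoprotein that faces the axon, gave small differences at 3 days. X06554cds_s_at read 969, 523 and 710.0 in control, 1047, 564 and 825 at 1 day and 925, 386 and 754 at 3 days. Letter a was highest and letter b lowest in each group, with full overlap between groups. The differences for this probe set were 0.14 ± 0.38 at 1 day and -0.14 ± 0.38 at 3 days. M22357_g_at, which correlated with it over the 9 arrays (r = 0.92, arrays shared), gave -0.06 ± 0.29 and -0.29 ± 0.29, and was lower within all 3 letters at 3 days, as were 13.2% of all tested probe sets. M22357_at gave -0.55 ± 0.44 at 1 day and 0.09 ± 0.44 at 3 days; its 1-day array c, at 76.3, was below the 142 to 312 of the other arrays, and without control c and 1-day c the 1-day difference was 0.06.

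The 2 probe sets for Mog, a glycoprotein of the outer myelin surface, disagreed at 1 day. L21995_s_at read 385, 270.0 and 283 in control, 242, 188 and 55.7 at 1 day and 312, 148 and 339.8 at 3 days. All 1-day arrays were below all control arrays, with array c far below the rest. The 1-day difference was -1.14 ± 0.50 (unadjusted p = 0.044, adjusted p = 1.00), and it was -0.52 without the 1-day array c and the smallest in size there over its 20 alternatives, of which 11 kept an unadjusted p under 0.05. M99485_at read 236, 251 and 319 in control, 235, 308 and 343 at 1 day and 177, 228 and 264 at 3 days. Here the 1-day array c was the highest of all 9, and the 1-day difference was 0.13 ± 0.26. Between 3 days and 1 day M99485_at was lower within all 3 letters, at -0.40 ± 0.26 (unadjusted p = 0.15, and 0.040 with the replicate letter as a block; adjusted p = 0.77 with the block). Being lower within all 3 letters in that comparison held for 5 of the 15 tested member probe sets and for 12.9% of all tested. Over the 9 arrays the 2 Mog probe sets had r = -0.52, and r = -0.15 without the 1-day array c.

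Ugt8, the ceramide galactosyltransferase that starts the synthesis of myelin galactolipids, is represented by rc_AI228110_s_at above the filter. It read 443, 591 and 427 in control, 389.7, 594 and 593 at 1 day and 340.2, 539.7 and 305 at 3 days. At 3 days it was below control within all 3 letters, by 0.13 to 0.48, yet the groups overlapped, with letter b the highest in each. Being lower within all 3 letters held at 3 days for 4 of the 15 tested member probe sets and for 13.2% of all tested. The difference was -0.33 ± 0.29 at 3 days and 0.10 ± 0.29 at 1 day. The second probe set, U07683_at, was dim at 0.7 to 23.5 and gave 0.50 ± 0.63 at 3 days without the filter.

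Mobp, a small basic protein of compact myelin, had the 3 probe sets with the widest errors among the members. D28111_g_at read 2604, 793 and 1169.9 in control, 3110.0, 568 and 98.2 at 1 day and 2458, 565 and 1035 at 3 days. Array a was above arrays b and c in every group, and the 1-day array c was below all others by over 2 units of log2. The difference from control was -1.25 ± 1.01 at 1 day and -0.25 ± 1.01 at 3 days. D28111_at read 1200.2, 305 and 500.4 in control, 1346, 333 and 74.5 at 1 day and 1203, 284 and 658 at 3 days. D28110_g_at read 926, 297 and 310.3 in control, 1071, 280.0 and 94.6 at 1 day and 908, 299 and 332 at 3 days. Both showed the same order of arrays, and these 3 probe sets correlated with each other at r = 0.96 to 0.99 over the 9 arrays. The fourth, D28110_at, read 79.6 to 199 and followed them less closely (r = 0.36 to 0.38, and 0.60 to 0.75 without the 1-day array c). Without control c and 1-day c, the 1-day differences of D28111_at, D28110_g_at and D28110_at were 0.14, 0.06 and 0.09, against -0.80 ± 0.90, -0.52 ± 0.78 and -0.11 ± 0.38 over all arrays. That of D28111_g_at was -0.11 without both and -0.013 without the 1-day array c alone, so it came near 0 and kept its sign.

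**Figure D3:**
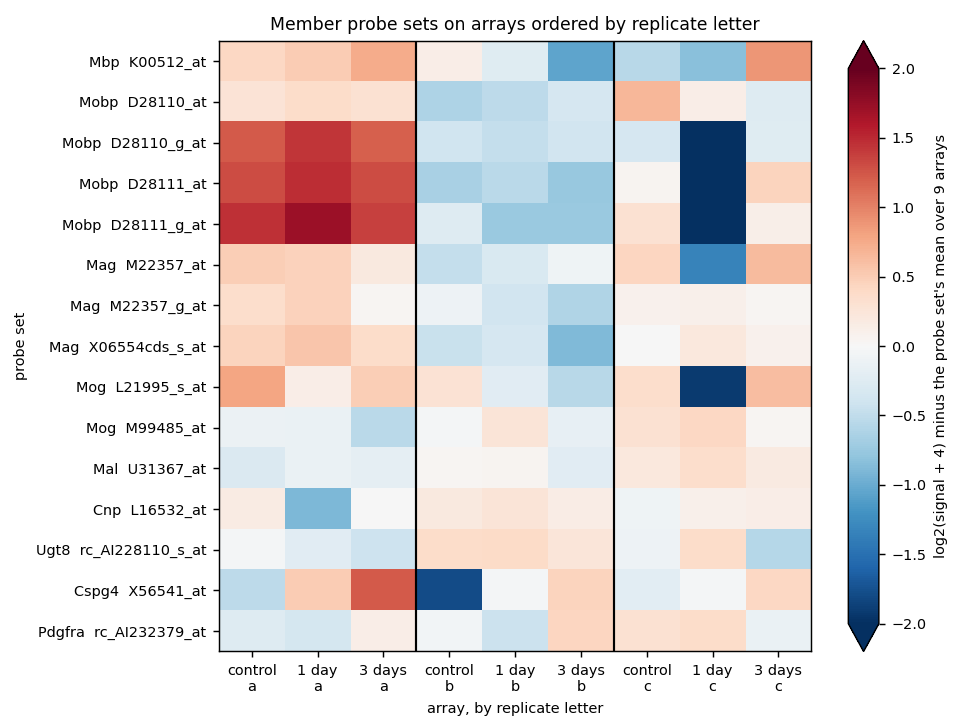
Deviation of log2(signal + 4) from each probe set's mean over the 9 arrays, for the 15 tested member probe sets, with arrays ordered by replicate letter (red above the mean, blue below; colours end at 2 units). Mobp and Mag are above their mean on the 3 arrays of letter a and mostly below it on those of letter b, in all 3 groups, and the 1-day array c is darkest for 3 Mobp probe sets and for Mog L21995_s_at.

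Members passed the test between replicate letters, though not between groups. The labels do not say what the letters stand for, and the letter test was chosen after the values were seen. In the limma fit with group and letter, 2 of 15 member probe sets differed over the letters, Mobp D28110_g_at (adjusted p = 0.037) and Mag X06554cds_s_at (adjusted p = 0.043); 3.56% of all tested probe sets did. At an unadjusted p under 0.05 there were 7 of 15, beside 30.0% of all tested. Without the 1-day array c, 4 of 15 differed (5.03% of all tested; 9 of 15 at an unadjusted p, beside 27.6%): Mobp D28111_at, D28110_g_at and D28111_g_at (adjusted p = 0.0018, 0.0023 and 0.0035) and Mag X06554cds_s_at (adjusted p = 0.036). The signal of Mobp D28111_at on array a was 3.93 times that on array b in control, 4.05 times at 1 day and 4.24 times at 3 days, while D28110_g_at had ratios of 3.12, 3.83 and 3.04 in the same order. For Mag X06554cds_s_at the ratios were 1.85, 1.86 and 2.40. Array a was above array b in all 3 groups for 10 of the 15 member probe sets and for 23.8% of all tested. The 10 were the 4 Mobp and 3 Mag probe sets, Mbp, Cspg4 and Mog L21995_s_at, so several share a target RNA. Array a was above array b by at least 2-fold in all 3 groups for 3 of the 15, all Mobp, and for 1.41% of all tested. Array b was above array a in all 3 groups for 3 of the 15 (Cnp, Ugt8 rc_AI228110_s_at and Mog M99485_at) and for 23.5% of all tested, a share close to that of the members. By the brightest probe set of each gene, array a was above for Mbp, Mobp, Mag and Cspg4, and array b for Mog, Cnp and Ugt8.

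The 1-day array c likewise split the members. It was the lowest of the 9 arrays by at least 1 unit of log2 for 4 of the 15 (3 Mobp probe sets and Mog L21995_s_at) and for 4.76% of all tested, the highest share of any array. On the same array Mal, at 701, and Mog M99485_at, at 343, had their highest signal of all 9.

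The structural genes varied over the arrays in more than 1 way. Without the 1-day array c, Mag X06554cds_s_at correlated with Mobp D28111_g_at at r = 0.93 and with Mbp at r = 0.76 (8 arrays); over all 9 arrays these values were 0.43 and 0.60. Mog M99485_at and Mal had r = 0.80 over 9 arrays and 0.72 without 1-day c, while Mal and Mobp D28111_g_at had r = -0.67 and -0.41. The mean of the standardised log2 values of the brightest probe sets of Mbp, Mobp, Mag, Mog, Mal and Cnp correlated with these 6 genes at r between 0.05 (Cnp) and 0.62 (Mag) over 9 arrays. Its lowest value, -0.85, and its highest, 0.47, were both 3-day arrays, b and c. The genes most like it among 3180 searched were Ssrp1 (r = 0.96), Nln (0.93), Fzd2 (0.93), Tubgcp6 (0.91) and Atp2a2 (0.91), each closer to the mean than any of the 6. Those most like Cspg4 were Adra2b (0.92), Pola2 (0.91) and Fam234a (0.91), and those most like Pdgfra were Pom121 (0.93), Stx1a (0.87) and Endod1 (0.87). Arrays, letters and signal scale are shared by all of these, so the values are a description.

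Other genes of myelin, taken by the brightest probe set of each, were mostly lower by small amounts. Of 20 tested genes, 17 were lower at 3 days, with a median of -0.18, and 14 at 1 day, with a median of -0.14; 0 passed the test, and 1 had an unadjusted p under 0.05. Without control c and 1-day c the counts were 12 of 20 at 3 days (median -0.10) and 10 of 20 at 1 day (median -0.01), and leaving out control c alone gave 12 at 3 days and 9 at 1 day, where the median became 0.03; leaving out 1-day a gave 10 at 1 day. Their summed signal was 7357 to 8781 on control arrays, 7468 to 8651 on 1-day arrays and 6785 to 7359 on 3-day arrays. Sirt2, a deacetylase abundant in myelin, read 633, 547 and 661 in control, 596, 411 and 634 at 1 day and 558, 347 and 324 at 3 days. The 3-day difference was -0.62 ± 0.28 (unadjusted p = 0.049, adjusted p = 1.00), with array a of 3 days above control b. Over its alternatives it lay between -0.86 and -0.47; it was -0.56 (unadjusted p = 0.12) without control c and -0.47 (unadjusted p = 0.16) without the 3-day array c. Qdpr, which regenerates tetrahydrobiopterin, gave -0.34 ± 0.27 at 3 days, and Pllp, the myelin proteolipid plasmolipin, and Enpp2, autotaxin, gave -0.58 ± 0.41 and -0.72 ± 0.54 at 1 day, where array c was lowest for both. Apod, a lipid carrier, gave -0.39 ± 0.22 between 3 days and 1 day (unadjusted p = 0.10, and 0.044 with the replicate letter as a block).

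Other precursor and lineage genes did not share a direction. Of 17 tested, 12 were higher at 1 day (median 0.03) and 10 at 3 days (median 0.10), 0 passed the test, and the median turned negative at 1 day under median centring (-0.01) and without 1-day a (-0.08), and at 3 days without control c (-0.07). Sox10, the transcription factor of the whole oligodendrocyte lineage, read 57.6, 42.9 and 37.6 at 3 days, against 77.4, 75.7 and 78.7 at 1 day, with no overlap. Such a separation held for 5.72% of all tested probe sets. Control lay across both, at 94.2, 51.5 and 52.3. The difference between 3 days and 1 day was -0.72 ± 0.32 (unadjusted p = 0.046, adjusted p = 1.00), and -0.45 ± 0.32 between 3 days and control. Over the alternatives the former lay between -0.88 and -0.60. In limma its unadjusted p was 0.057 without the filter, 0.052 under median centring and 0.13 without the 3-day array c. Hes1, a Notch target, gave 0.62 ± 0.35 at 1 day (unadjusted p = 0.10, and 0.028 with the letter block) and -0.66 ± 0.35 between 3 days and 1 day (unadjusted p = 0.086, and 0.022 with the block). Sox11 gave 0.79 ± 0.62 at 1 day, and Fgfr2, a fibroblast growth factor receptor, -1.05 ± 0.61 at 3 days.

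Genes of axon-glia contact were mostly higher at 3 days, with 11 of 13 higher and a median of 0.20, and 7 of 13 higher at 1 day (median 0.06). In limma 0 passed and 0 had an unadjusted p under 0.05 in any comparison; with the replicate letter as a block 1 did at 3 days (Ncam1, unadjusted p = 0.041) and 1 at 1 day (Ank3, unadjusted p = 0.049). Without control c 9 of 13 were higher at 3 days (median 0.09); the 1-day median was -0.02 without control c and -0.18 without 1-day a. The adhesion molecules Ncam1 and L1cam gave 0.55 ± 0.38 and 0.30 ± 0.30 at 3 days, the sodium channel Scn8a of the node of Ranvier -0.74 ± 0.55 at 1 day, Ank3, which anchors nodal channels, 0.42 ± 0.35 at 1 day, and the neurotrophin receptor Ngfr 0.89 ± 0.54 between 3 days and 1 day. For Ngfr the 1-day array c, at 82.0, was the lowest of the 9 arrays. Scn8a read 75.2, 12.6 and 23.1 on the 1-day arrays a, b and c. Of 8 growth factor genes that act on the lineage 5 were lower at each time, and 5 were higher at each time without control a (medians 0.05 at 3 days and 0.15 at 1 day); without the 3-day array b 5 were higher at 3 days (0.13). Pdgfa, the ligand of the Pdgfra receptor, gave -0.58 ± 0.38 and the dim Pdgfb (3.8 to 56.3 over the 9 arrays) -0.93 ± 0.83 at 1 day. The others with the smallest p were Cntf (-0.54 ± 0.62) and Bdnf (0.37 ± 0.47) at 3 days and Fgf2 (-0.56 ± 0.50) between 3 days and 1 day.

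**Figure D4:**
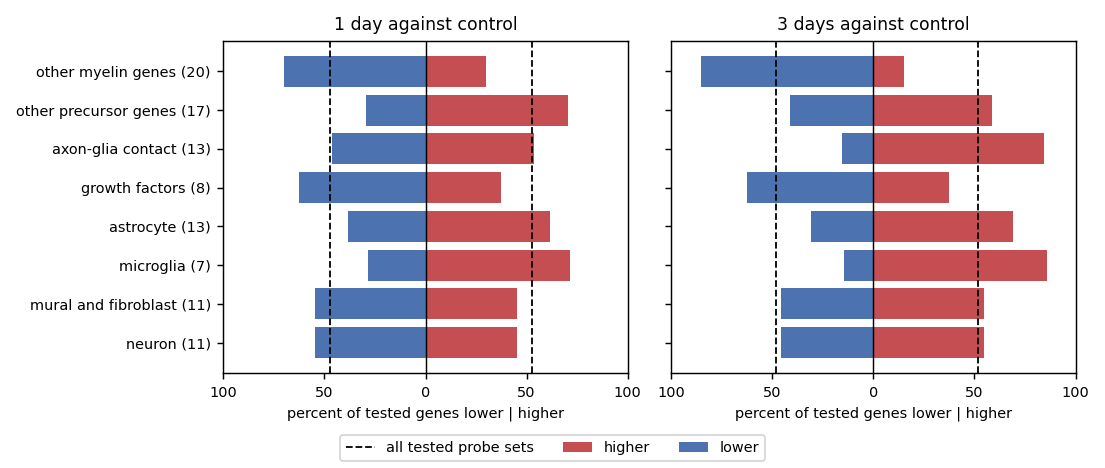
Percent of the tested genes of 8 lists that were higher (right) or lower (left) than control at 1 day and at 3 days, with the number tested in brackets; dashed lines mark the same percent over all tested probe sets. Other myelin genes were lower in 17 of 20 and axon-glia genes higher in 11 of 13 at 3 days, and no gene of any list passed the test.

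Other glia and neurons were measured on the same arrays. Of 13 astrocyte genes 9 were higher at 3 days (median 0.28), with a summed signal of 16414 to 22341, against 10379 to 17022 in control; Sparcl1, a matricellular protein of astrocytes, gave 0.70 ± 0.30 (unadjusted p = 0.040, adjusted p = 1.00) and 0.39 (unadjusted p = 0.18) without control c. After quantile normalization 7 of the 13 were higher at 3 days, with a median of 0.03, and Sparcl1 gave 0.55 (unadjusted p = 0.16). Of 7 microglia genes 6 were higher at 3 days (4 without control c) and 5 at 1 day, and the summed signal of the 12 on the array, 1523.5 to 1616 in control, was 1814 to 2198 at 1 day and 1767 to 1899.9 at 3 days, above all control arrays. Without the filter, 7 of these 12 were higher and 5 lower at 3 days, and 8 higher and 4 lower at 1 day. Of 11 neuron genes 6 were higher at 3 days and 5 at 1 day (median -0.03); without control c 1 was higher at 1 day (median -0.22), and without control b 9 were at 3 days. Of 11 magnocellular genes 8 were higher at 3 days and 10 at 1 day (median 0.14); at 1 day 5 were without the 1-day array a (median -0.0095) and 6 without the 1-day array b. Avp gave 0.95 ± 0.33 at 3 days (unadjusted p = 0.016) and 0.80 ± 0.33 between 3 days and 1 day, and Cck 1.16 ± 0.51 at 1 day and 1.57 ± 0.51 at 3 days. The single tested gene of the Schwann cell list was lower at both times and higher at both without control c (0.03 at 3 days and 0.08 at 1 day). With the replicate letter as a block, 2 astrocyte, 1 microglia, 1 neuron and 4 magnocellular genes had an unadjusted p under 0.05 at 3 days, against 1, 0, 0 and 2 without it, and 1 microglia gene did at 1 day, against 0. Over all 5247 tested probe sets the number also rose with the block, from 90 to 270 at 3 days and from 53 to 136 at 1 day. In these lists 0 genes passed the test, and the part of other cell types in the members' values was not tested.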

How the data were processed

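RNA of the supraoptic nucleus was measured on 9 Affymetrix rat arrays, 3 per group. The deposited intensities come from MAS5, as the submitters' processing notes state; version, build and detection calls are not given in the sources used here. The mean of each array, trimmed by 2% at each end, was 100.1, read from the values. Of 8799 probe sets 59 are controls; of the rest 7006 have 1 gene symbol, 308 several and 1426 none. All 9 members matched RefSeq by gene ID, and promoters, of which Mog had none, came from RefSeq on GRCr8.

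From the intensities log2(signal + 4) was computed, a scale that understates changes of weak signals. A mean signal of at least 23.1, the 40th percentile, was required; members under it came from a fit without the filter. limma 3.58.1 in R 4.3.3 fitted 3 group means to 9 arrays (6 residual degrees of freedom, intensity trend, two-sided), with Benjamini-Hochberg adjustment over 5247 probe sets per comparison at 0.05. Every p is from limma, which was tested on simulated data. The simulated arrays were independent and had no letter effect, so that test does not cover the variation that same-letter arrays share. The number of arrays limits the precision. Python 3.11.15 and matplotlib 3.10.9 drew the figures.

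The letters of the titles pair the arrays by the values: after subtraction of group means, all 9 same-letter pairs correlated (r = 0.17 to 0.47), and 18 different-letter pairs ranged from -0.33 to 0.12. Blocked values stand beside named genes that the block moves across an unadjusted p of 0.05, and blocked standard errors beside Mobp and Mal. With the block, 136 of all tested probe sets were under it at 1 day, 270 at 3 days and 275 between these times. Without the block these numbers were 53, 90 and 96.

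Members and gene lists were chosen with earlier results of these data known. Genes named beyond the members are those of each list with an unadjusted p under 0.05 and, for other myelin, precursor, axon-glia and growth factor genes, the 2 with the smallest p per comparison. Alternatives were pseudocounts of 1 and 16, median centring, quantile normalization, the 60th percentile as filter or none, a robust or trendless variance prior, only the compared groups in the fit, the letter block, each array left out, and control c and 1-day c left out together.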

Additional observations from a re-analysis of the deposited data

How the results depend on the processing

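Of 897 values of the 45 member differences under 20 alternatives, 835 kept their sign and 62, in 27 differences, changed it; 0 calls changed, since none was made. Without control c and 1-day c, signs turned at 1 day for Mobp D28110_at (0.092), D28110_g_at (0.063) and D28111_at (0.14), Mag M22357_at (0.062) and Ugt8 (-0.089), at 3 days for Mobp D28110_at (0.076) and D28110_g_at (-0.22), Mbp (-0.082), Cnp (-0.084) and Mal (0.046), and between 3 days and 1 day for Mobp D28110_g_at (-0.29), D28111_at (-0.14) and D28111_g_at (-0.24). Median centring turned Mobp D28110_g_at (-0.011) and Cnp (-0.033) at 3 days, and quantile normalization Mbp (-0.13) at 3 days. Leaving out 1 array at a time, the 1-day differences that changed sign ranged from -0.48 to 0.10 for Cnp, -0.26 to 0.16 for Mag M22357_g_at, -0.076 to 0.38 for Mag X06554cds_s_at, -0.038 to 0.21 for Mal, -0.53 to 0.14 for Mbp, -0.48 to 0.16 for Mobp D28110_at, -1.41 to 0.31 for Mobp D28110_g_at, -1.82 to 0.24 for Mobp D28111_at, -0.39 to 0.013 for Pdgfra and -0.0029 to 0.30 for Ugt8. At 3 days they ranged from -0.084 to 0.059 for Cnp, -0.22 to 0.27 for Mag M22357_at, -0.40 to 0.23 for Mag X06554cds_s_at, -0.20 to 0.046 for Mal, -0.15 to 0.82 for Mbp, -0.57 to 0.076 for Mobp D28110_at, -0.48 to 0.56 for Mobp D28110_g_at, -0.39 to 0.64 for Mobp D28111_at, -0.81 to 0.25 for Mobp D28111_g_at and -0.51 to 0.076 for Mog L21995_s_at. Between 3 days and 1 day they ranged from -0.092 to 0.49 for Cnp, -0.54 to 0.086 for Mag X06554cds_s_at, -0.35 to 0.099 for Mobp D28110_at, -0.29 to 1.44 for Mobp D28110_g_at, -0.14 to 1.91 for Mobp D28111_at and -0.24 to 2.23 for Mobp D28111_g_at. The cause was not tested.

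The number of members at an unadjusted p under 0.05 at 1 day was 0 after quantile normalization and 2 when the replicate block was added, and 0 to 4 with 1 array left out (4 without 1-day a; 0 without control a, control b, 1-day c, 3-day a or 3-day c). At 3 days it was 0 with the filter at the 60th percentile, which leaves Cspg4 out. Between 3 days and 1 day it was 1 with the block and 0 to 4 with 1 array left out (4 without 1-day a, 3 without 3-day b). The number over all 5247 tested probe sets moved too. At 1 day it was 53 in the main fit, 136 with the block and 181 without 1-day a. Between 3 days and 1 day it was 96 in the main fit, 275 with the block, 321 without 1-day a and 145 without 3-day b. Members called over the letters were 4 without 1-day c, against 2. The block changed no call among the members. Signal over background limits Cspg4, Ugt8 U07683_at and the 3 dim Pdgfra probe sets.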
